A study of Mus musculus with 2 samples.

Results

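Integrins are heterodimers of 1 alpha and 1 beta subunit that hold cells to matrix or to other cells and signal through adaptors bound to their short cytoplasmic tails. In osteoclasts, alpha v beta 3 is the known receptor for RGD-containing bone matrix proteins such as osteopontin and serves in the sealing zone, whereas alpha v beta 5 is the form known from their precursors. Macrophages and other leukocytes are known for the beta 2 family (alpha L, alpha M and alpha X, of which alpha L forms LFA-1 and alpha M forms Mac-1) and for the fibronectin and VCAM-1 receptors alpha 4 beta 1 and alpha 5 beta 1. The 10 genes described here encode these subunits: Itgav, Itgb3, Itgb5, Itgb1, Itga4, Itga5, Itgam, Itgax, Itgal and Itgb2. All 10 were on the array and were read by 22 of its 45281 probes, each taken by its gene symbol in the platform annotation, out of 19057 genes named there.

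The study set macrophages against osteoclasts grown from bone marrow of C57BL/6J mice aged 8 to 12 weeks. Marrow from the leg bones was plated whole and kept with M-CSF (25 ng/ml), the growth factor of macrophages, for 4 days, and osteoclasts were made by 3 more days with M-CSF at the same dose and soluble RANKL (30 ng/ml), the ligand of RANK under which precursors fuse into osteoclasts. There was 1 sample of each cell type, each of 3 mice and each on 1 Illumina bead array, so M-CSF was common to both groups and RANKL was given to the osteoclasts. With no second array in either group there was no spread to test against, no p-value is given, and every difference is one between these 2 samples. The arrays lay on different chips, and the labels do not state when the macrophages were collected; chip, time in culture and cell type cannot be told apart.

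Intensities are the deposited background-subtracted brightness of a probe on a linear scale, and a probe counted as detected where it exceeded the estimated background with a one-sided p of 0.01 (a limit of 4.34 for macrophages and 7.23 for osteoclasts). Differences are osteoclasts minus macrophages, taken as log2 of the corrected intensity plus 16 after quantile normalization; the added 16 makes changes of dim probes look smaller than they were, and a gene was read at its probe with the highest mean signal. The osteoclast array was brighter, with a median intensity of 7.84 against 3.90, and 22999 and 22180 probes were detected. Most defining genes followed the labels. Of 13 detected osteoclast markers 11 were at least 2-fold higher in osteoclasts, led by Ctsk (cathepsin K) from 55.4 to 50206. A further osteoclast marker, Atp6v0d2, was at background on both arrays. Of 13 macrophage markers 12 were at least 2-fold lower, led by Fcgr1 (the high-affinity IgG receptor) from 949 to 75.6. Markers of other cells also moved with the groups: granulocyte markers were lower in osteoclasts (14 of 15), and epidermal (10 of 11) and skeletal muscle markers (11 of 12) were higher. All counts of marker lists are to be read against the 11.4% higher and 8.14% lower of all detected genes. Fewer cells of a type and less RNA per cell cannot be told apart in such samples.

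The alpha v chain, the alpha 5 chain and the alpha L chain differed by at least 2-fold between the samples, and the other 7 genes did not. Itgav was 6.26-fold and Itga5 2.14-fold higher in osteoclasts, and Itgal was 3.47-fold lower. All 10 genes were detected on both arrays at the probe that stood for them. The 2 higher genes of 10 compare with 11.4% of all 13128 detected genes, and the 1 lower gene with 8.14%, so the counts lay near those of the whole array. Without normalization between arrays 5 genes were higher and 0 lower, beside 29.1% and 2.86% of all detected genes in that setting. With an offset of 50, 1 was higher (7.85% of all), since Itga5 then fell short of 2-fold. The median difference of the 10 genes was 0.12 log2 units, against -0.06 for all detected genes. Of the 22 probes, 16 were detected on at least 1 array, 4 of which were at least 2-fold higher (9.52% of all detected probes), 1 lower (7.23%) and 11 within 2-fold, while 6 (2 of Itgav and 4 of Itga4) were above background on neither array.

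**Figure D1:**
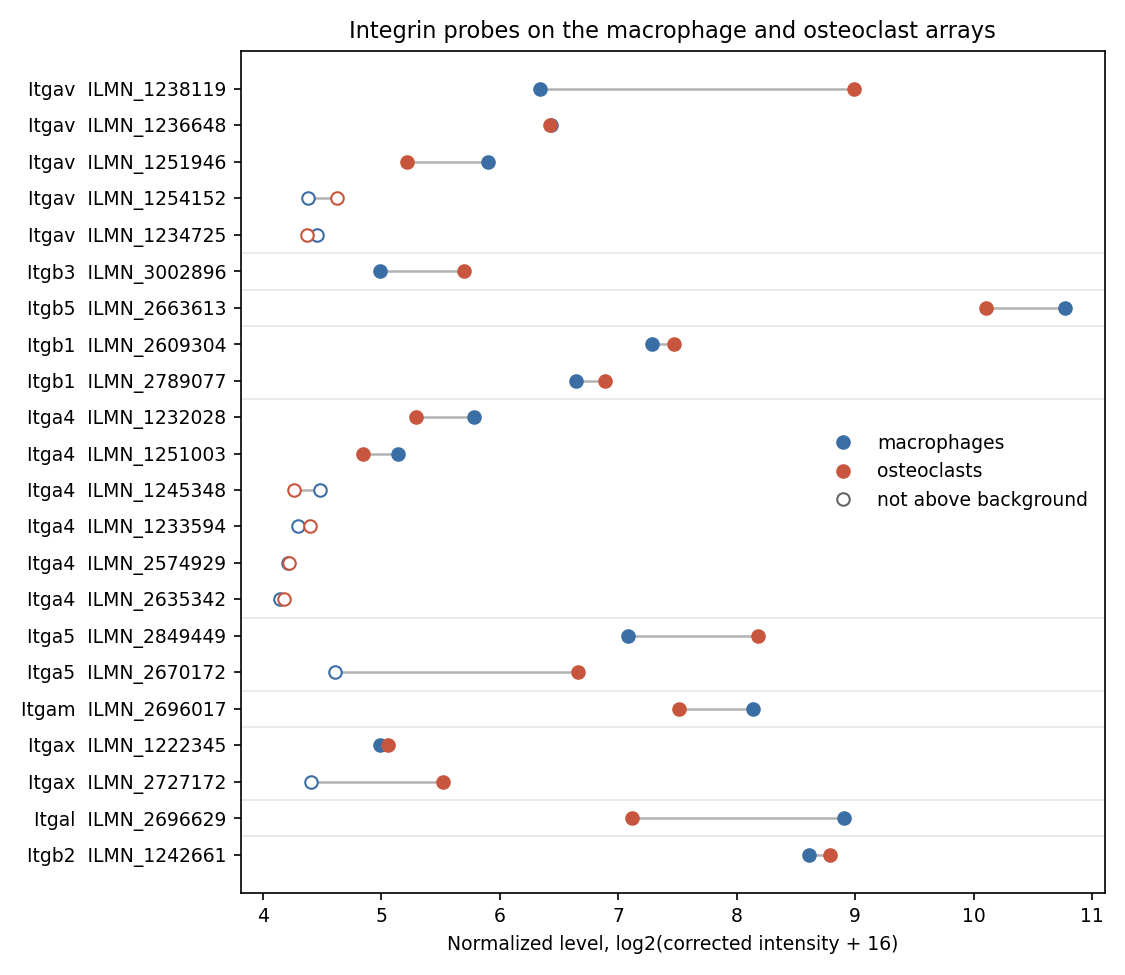
Each row is 1 probe, the horizontal axis is its normalized level as log2(corrected intensity + 16), blue points are the macrophage sample and red points the osteoclast sample, and open points were not above background. The first Itgav probe rises from 6.34 to 8.99 and the Itgal probe falls from 8.91 to 7.11, while the other Itgav probes show no such rise.

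Itgav encodes the alpha chain that both vitronectin receptors of these cells share. The probe that stood for Itgav (ILMN_1238119) is the one annotated to the gene's RefSeq transcript. It had the highest mean signal through its osteoclast value, since another probe (ILMN_1236648) was brighter in macrophages. The mean was taken over the same 2 arrays that are compared, which can favour a probe that differs. ILMN_1238119 had an intensity of 41.4 in macrophages and 662 in osteoclasts. The osteoclast value was the higher one, and the normalized difference was 2.65 log2 units, above 98.0% of all detected genes. It lay between 2.23 with an offset of 50 and 3.48 without normalization between arrays. The other 4 probes are annotated to cDNA clones and did not share this difference. One of them (ILMN_1236648) read 44.8 and 93.0, a normalized difference of -0.01, or 0.82 without normalization. Another (ILMN_1251946) read 27.2 and 22.1, a difference of -0.68, which became -1.26 without background correction. The last 2 were at background on both arrays, with intensities between -2.04 and 5.24. The call of Itgav therefore rests on 1 of its 3 detected probes, and averaging all 5 gave 0.42.

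Neither beta 3 nor beta 5, the partners of alpha v named above, reached 2-fold in the main setting. Itgb3, the beta 3 chain, was dim, with an intensity of 7.93 in macrophages and 42.8 in osteoclasts at its 1 probe (ILMN_3002896). The higher value was again that of the osteoclasts, 5.40 times the other as deposited. That ratio was not normalized although the osteoclast array was brighter, and its lower value lay near the macrophage detection limit of 4.34. On the normalized scale, where the offset of 16 weighs on values this low, the difference was 0.71 log2 units (1.63-fold), above 82.9% of detected genes and short of 2-fold. It reached 2-fold without background correction (1.02) and without normalization (1.21), and was 0.39 with an offset of 50. Itgb5, the beta 5 chain, read 1320 in macrophages and 1429 in osteoclasts at its 1 probe (ILMN_2663613). The deposited values were close to each other while the osteoclast array as a whole was brighter, and the normalized difference was -0.67 log2 units, within 2-fold; it was 0.11 without normalization.

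The changes of subunits were also set against each other, since a plain scaling factor cancels in such a difference, though quantile normalization and the offset do not cancel for genes of unequal brightness. Pairs were taken after the values had been seen, so these are descriptions. The change of Itgb3 exceeded that of Itgb5 by 1.38 log2 units (2.60-fold), and by 1.04 to 1.70 over 7 processing settings. The change of Itgav exceeded that of Itgb5 by 3.31 (from 2.88 to 3.68) and that of Itgb3 by 1.94 (from 1.84 to 2.27). The order Itgav, Itgb3, Itgb5 was thus the same under all 7 settings at the probes that stood for these genes, whereas at the other Itgav probe near 0 it would not hold, since -0.01 lies below the 0.71 of Itgb3.

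**Figure D2:**
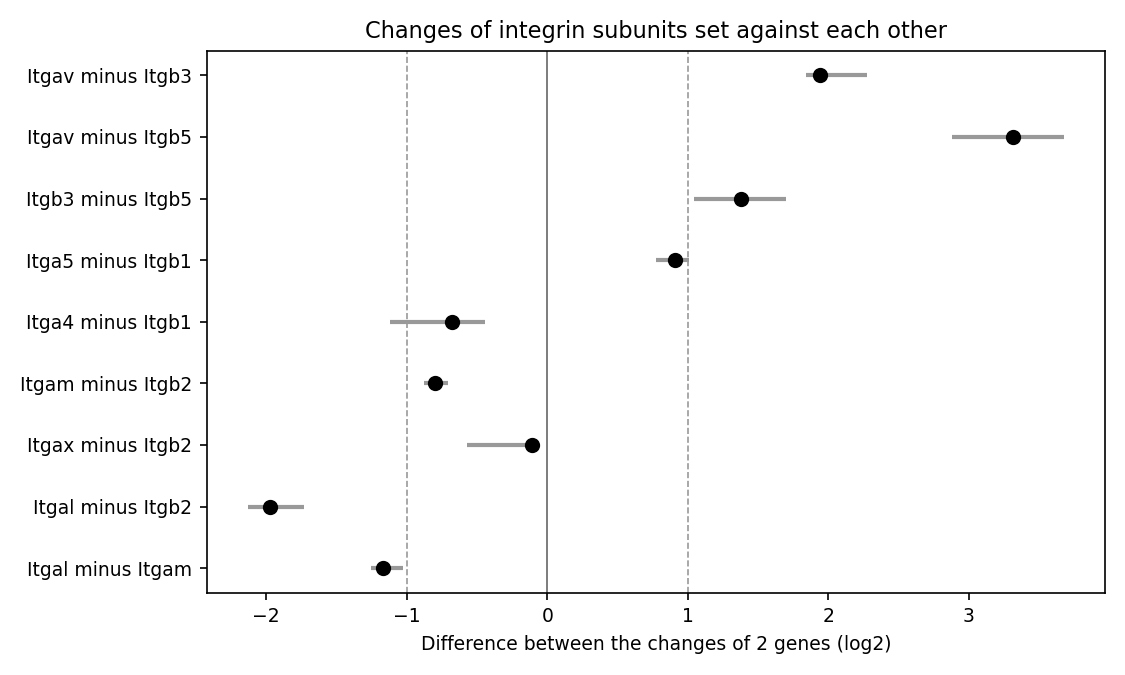
Each row sets the change of one subunit gene against that of another; the horizontal axis is the difference between the 2 changes in log2 units, the black point is the main setting, the grey line spans the lowest and highest of 7 settings, and dashed lines mark 2-fold. Itgav minus Itgb5 (3.31) lies farthest to the right and Itgal minus Itgb2 (-1.97) farthest to the left, and no line crosses 0.

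Of alpha 4, alpha 5 and the beta 1 chain they share, only alpha 5, a chain of the fibronectin receptor, differed by at least 2-fold. Itga5 read 79.9 in macrophages and 374 in osteoclasts at its brighter probe (ILMN_2849449). The normalized difference was 1.09 log2 units (2.14-fold), which is close to the 2-fold limit and fell to 0.93 with an offset of 50. Its second probe (ILMN_2670172) read 2.29 and 115, not above background in macrophages. In the main setting this puts the probe at least 3.74-fold higher in osteoclasts. The difference of this probe was 1.80 log2 units in the authors' values and 1.22 with an offset of 50. Both probes of Itga5 were thus higher in osteoclasts. Itgb1, the beta 1 chain that alpha 4 and alpha 5 share, read 95.1 and 217 at one probe (ILMN_2609304) and 54.5 and 139 at the other (ILMN_2789077). These gave normalized differences of 0.19 and 0.24 log2 units, both within 2-fold, and 1.05 and 1.11 without normalization. Itga4, the alpha 4 chain of the VCAM-1 receptor, read 24.2 and 24.8 at its brighter probe (ILMN_1232028). Its second detected probe (ILMN_1251003) read 10.5 in macrophages and 1.05 times that in osteoclasts. The values hardly differed as deposited, and the normalized differences were -0.49 and -0.29, or 0.06 and 0.09 without normalization. The change of Itga5 exceeded that of Itgb1 by 0.91 log2 units and that of Itga4 fell short of it by 0.68.

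The beta 2 integrins did not move as one family. Itgal, the alpha L chain of LFA-1, a receptor for ICAMs, read 336 in macrophages and 168 in osteoclasts (ILMN_2696629). It was the only one of the 10 genes whose standing probe was brighter in macrophages as deposited. The normalized difference was -1.79 log2 units, with 2.64% of detected genes below it, and it ranged from -1.95 without background correction to -0.91 without normalization, where it no longer reached 2-fold. Itgam, the alpha M chain of Mac-1 (CD11b), a complement receptor, read 187 and 224 (ILMN_2696017). Its normalized difference of -0.62 was within 2-fold and turned to 0.25 without normalization. Itgb2, the chain common to the family, read 270 and 575 (ILMN_1242661), a normalized difference of 0.18, or 1.04 without normalization.

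Itgax, the alpha X chain (CD11c) known from dendritic cells and some macrophages, was dim at both probes. The probe that stood for it (ILMN_1222345, annotated to a cDNA clone) read 7.82 and 17.0, a normalized difference of 0.07 log2 units. The probe annotated to the RefSeq transcript (ILMN_2727172) read -0.90 in macrophages, at background, and 33.7 in osteoclasts, which puts this probe at least 1.70-fold higher there. The measured difference of that probe, 1.11 log2 units, is one of the 4 past 2-fold and fell short of it at the bound, with an offset of 50 (0.54) and without background correction (0.70). Set against Itgb2, the change of Itgal was lower by 1.97 log2 units (3.92-fold), with values from -2.13 to -1.73 over 7 settings. That of Itgam was lower by 0.80 (from -0.88 to -0.71), and that of Itgax by 0.11 (from -0.57 to -0.07). At the RefSeq probe of Itgax the order with Itgb2 turns, since 1.11 lies above 0.18. Itgal also lay 1.17 log2 units below Itgam (from -1.26 to -1.03).

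**Figure D3:**
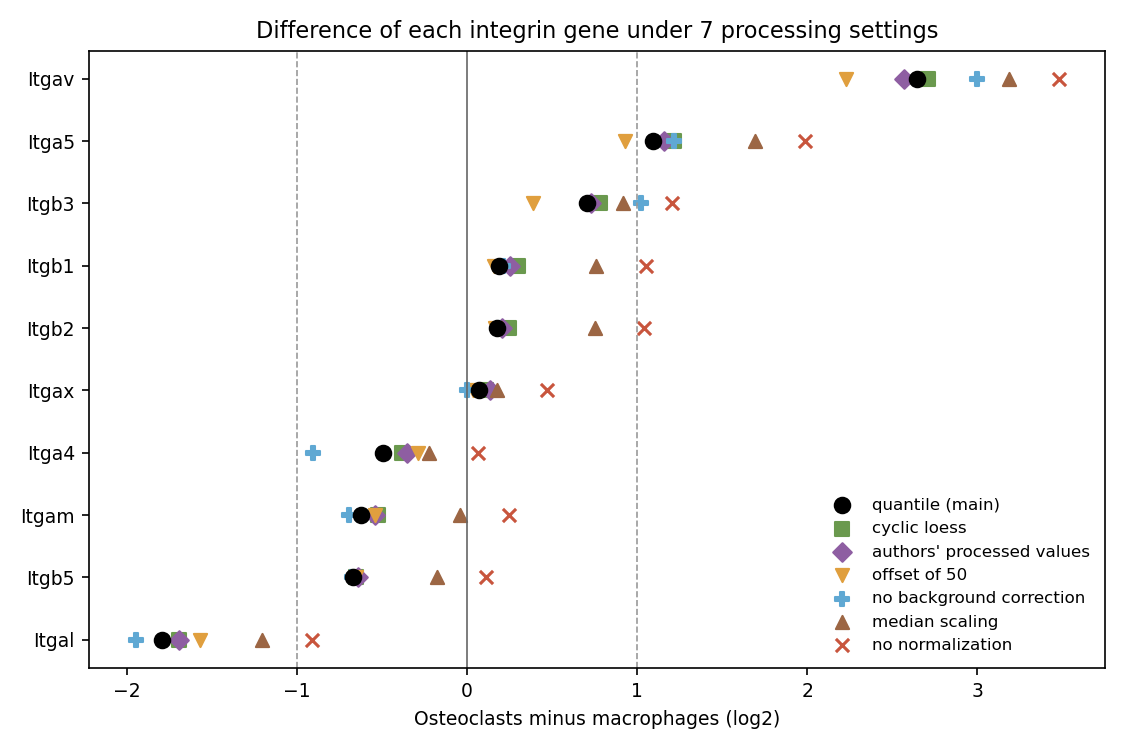
Each row is 1 of the 10 genes at the probe that stands for it, the horizontal axis is osteoclasts minus macrophages in log2 units, each symbol is 1 of 7 processing settings, and dashed lines mark 2-fold. Itgav stays to the right of 2-fold in all of them, and the crosses without normalization lie to the right of the main values for every gene, with Itgal at -0.91 and Itgb5 at 0.11.

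The values of other cells' markers stand beside the beta 2 family because neutrophils and lymphocytes are known to carry these chains. Of 15 granulocyte markers all were detected in macrophages and 10 in osteoclasts, where Mpo, Ctsg, Retnlg, Cxcr2 and Mmp8 were not above background. Their summed corrected intensity was 49616 in macrophages and 1054 in osteoclasts. This sum and those of the other lists were not normalized between arrays. Without normalization, probes detected on both arrays were 1.47-fold higher in osteoclasts at the median. Ngp and Ltf, granule proteins of neutrophils, differed by -7.59 and -7.34 log2 units. Of 11 lymphocyte and NK markers 6 were detected in macrophages and 4 in osteoclasts, with Cd3e, Cd3d, Cd8a, Ms4a1 and Ncr1 at background on both, and their sums were 508 and 906. Of the 6 detected members 1 was at least 2-fold higher and 3 lower, or 2 at their bounds. Cd79b, a chain of the B cell receptor complex, differed by -2.36 and Nkg7 was at least 2.70-fold lower in osteoclasts, while Il7r, the interleukin 7 receptor, read 136 and 679 and was 2.46-fold higher. Of 10 dendritic cell markers 6 were detected in macrophages and 3 in osteoclasts, with sums of 291 and 148; Batf3 was at least 10.4-fold and Siglech at least 1.65-fold lower in osteoclasts, while Xcr1, Clec9a and Cd209a were at background on both. The part of these cells in the values of Itgal, Itgam, Itgax and Itgb2 was not tested.

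Itgav, Itga5 and Itgb1 are known from many stromal cells too, and Itgb3 from platelets. Of 13 fibroblast and osteoblast markers 4 were detected in macrophages and 9 in osteoclasts, their sums were 160 and 2221, and Dcn (decorin) read -2.82 and 1600 and was at least 45.7-fold higher. Thy1 was at least 4.33-fold higher, and Pdgfrb, Postn, Sp7 and Bglap were at background on both arrays. Of 11 epidermal markers 2 were detected in macrophages and all 11 in osteoclasts, with sums of 150 and 23194; Lor (loricrin) was at least 155-fold and Krt14 at least 135-fold higher. Of 12 muscle markers 5 and 12 were detected, with sums of 207 and 16968, and Acta1 (skeletal muscle actin) was at least 137-fold and Myl1 at least 89.7-fold higher. Of 10 megakaryocyte and platelet markers 8 were detected in macrophages and 4 in osteoclasts, with sums of 1888 and 1042; of the 9 detected on either array 2 were at least 2-fold higher and 5 lower, or 4 at their bounds. Pf4 differed by -1.96 and Ppbp was at least 8.56-fold lower, whereas Gfi1b was at least 2.23-fold and Vwf (von Willebrand factor) 2.16-fold higher. Endothelial sums, which were not normalized, were 163 and 250. Of 9 detected endothelial markers 0 were past 2-fold, beside 11.4% higher and 8.14% lower of all detected genes. Erythroid sums, also not normalized, were 5486 and 10322. Of the erythroid sums, Tfrc (the transferrin receptor) alone gave intensities of 5387 and 10025, a normalized difference of 0.25, and of 6 detected members Hba-a1 (a haemoglobin chain) was higher by 2.20 log2 units and the other 5 were within 2-fold. The part of these cells in the values of the alpha v and beta 1 integrins was not tested.

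**Figure D4:**
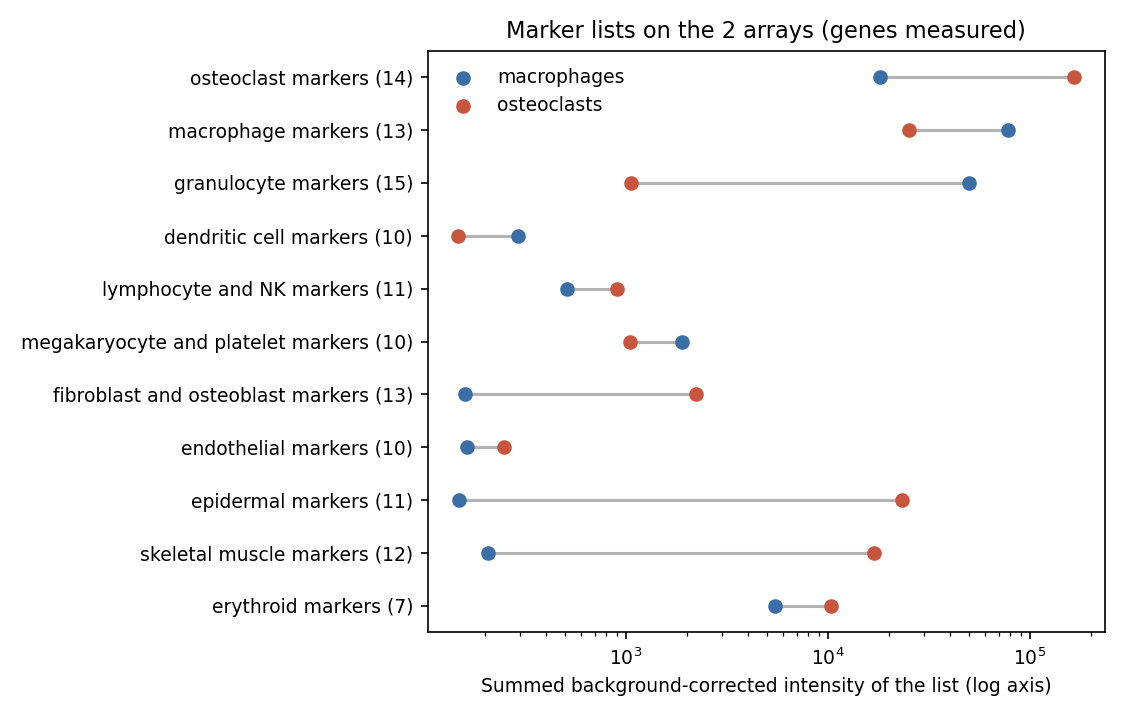
Each row is a list of marker genes with the number measured in brackets, and blue and red points are the macrophage and osteoclast samples. The horizontal log axis is the summed background-corrected intensity of the list, not normalized between arrays. Granulocyte markers drop from 49616 to 1054, and epidermal and muscle markers rise from 150 and 207 to 23194 and 16968.

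No promoter window was at hand for Itgal, the only gene at least 2-fold lower, or for Itgb2 and Itgb3. RefSeq (GRCm38.p6) gave a promoter window, 250 bases before to 50 after a transcript start, for the other 7 of the 10 genes. Those of both genes at least 2-fold higher in osteoclasts, Itgav and Itga5, and those of the neighbouring beta 2 family genes Itgam and Itgax, which were within 2-fold at the probes that stood for them, are shown 5′ to 3′ on the gene's strand. Capitals mark matches on either strand to the core of PU.1 sites (GAGGAA, a myeloid factor of the ETS family), AP-1 (TGANTCA), the GC box (GGGCGG) and the TATA box (TATAAA); no matches overlapped in these windows.
Itgav, chr2:83724147-83724446, plus strand: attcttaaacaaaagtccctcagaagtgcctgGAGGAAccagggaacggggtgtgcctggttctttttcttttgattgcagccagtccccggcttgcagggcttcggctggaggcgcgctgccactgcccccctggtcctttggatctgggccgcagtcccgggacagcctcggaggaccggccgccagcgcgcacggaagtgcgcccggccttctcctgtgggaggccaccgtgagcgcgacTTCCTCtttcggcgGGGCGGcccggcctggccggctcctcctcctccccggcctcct
Itga5, chr15:103366742-103367041, minus strand: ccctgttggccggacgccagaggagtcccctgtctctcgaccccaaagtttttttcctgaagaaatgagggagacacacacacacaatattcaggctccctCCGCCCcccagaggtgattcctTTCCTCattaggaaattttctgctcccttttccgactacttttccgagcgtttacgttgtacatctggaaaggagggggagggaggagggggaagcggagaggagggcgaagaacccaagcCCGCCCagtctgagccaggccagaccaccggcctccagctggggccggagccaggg
Itgam, chr7:128062390-128062689, plus strand: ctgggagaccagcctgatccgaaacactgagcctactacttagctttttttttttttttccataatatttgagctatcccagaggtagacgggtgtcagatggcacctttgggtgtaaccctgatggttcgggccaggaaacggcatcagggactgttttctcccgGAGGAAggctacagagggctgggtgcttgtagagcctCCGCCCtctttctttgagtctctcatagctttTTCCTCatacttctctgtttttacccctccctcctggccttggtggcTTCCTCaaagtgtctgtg
Itgax, chr7:128129300-128129599, plus strand: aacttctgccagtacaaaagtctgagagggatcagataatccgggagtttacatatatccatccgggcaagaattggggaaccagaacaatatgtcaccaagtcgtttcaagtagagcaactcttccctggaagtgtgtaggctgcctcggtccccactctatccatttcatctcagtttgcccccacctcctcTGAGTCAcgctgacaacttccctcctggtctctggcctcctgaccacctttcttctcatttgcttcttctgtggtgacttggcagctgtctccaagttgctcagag

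The Itgav window held 2 PU.1 core matches and 1 GC box, that of Itga5 1 and 2, and that of Itgam 3 and 1. The windows not shown, of genes within 2-fold, held 1 and 1 (Itgb1), 0 and 3 (Itgb5), and 0 and 1 (Itga4). The Itgax window held 1 AP-1 match and no PU.1 core or GC box, and none of the 7 windows (0) held a TATA box. Over all 32851 windows of the same length, 28.3% held the PU.1 core, 7.81% the AP-1 letters, 35.7% the GC box and 13.6% the TATA box. The GC content was 67.3% for Itgav and 58.7% for Itga5 and 50.3% for Itgam, with a median of 52.7% over all windows, and 39.3% of all windows had less GC than that of Itgax. The windows of Itgb1 (67.3%), Itgb5 (65.7%) and Itga4 (64.3%), genes within 2-fold, also lay above that median. Matches are descriptions of letters, and nothing was measured on binding. Itgam, Itgax and Itgad follow each other as neighbouring genes on chromosome 7, and their normalized differences were -0.62, 0.07 and -0.16 log2 units at the probes that stood for them, all within 2-fold.

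Of the 16 other integrin subunit genes listed, 15 were measured and 12 detected. Of these, 4 were at least 2-fold higher (11.4% of all detected genes), or 2 at their bounds (10.5%). Another 1 was lower (8.14%) and 7 were within 2-fold, and the median of the 12 was -0.07. Itgb7, a beta chain that pairs with alpha 4 or alpha E in lymphocytes, read 24.6 and 867 and was 11.9-fold higher in osteoclasts, more than any of the 10 genes. Its known partners did not show such a difference. Itga4 was within 2-fold, and Itgae was detected in osteoclasts only at the probe that stood for it. That probe was at least 1.48-fold higher, while the detected probes of Itgae went down to -0.56 log2 units. Itgb4, the beta chain of epithelial hemidesmosomes, read 8.23 and 105 and was 2.91-fold higher, with 0.42 log2 units at the second probe; the epidermal sums given above moved the same way, and their part in this value was not tested. Itga9 read 104 and 50.8 and was 2.91-fold lower (0.37 at its other detected probe). Among all 22 detected integrin genes at the probes that stood for them, Itgav ranked next below Itgb7 under all 7 settings, and Itgal was lowest except without background correction, where Itga9 (-2.01) lay below it.

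**Figure D5:**
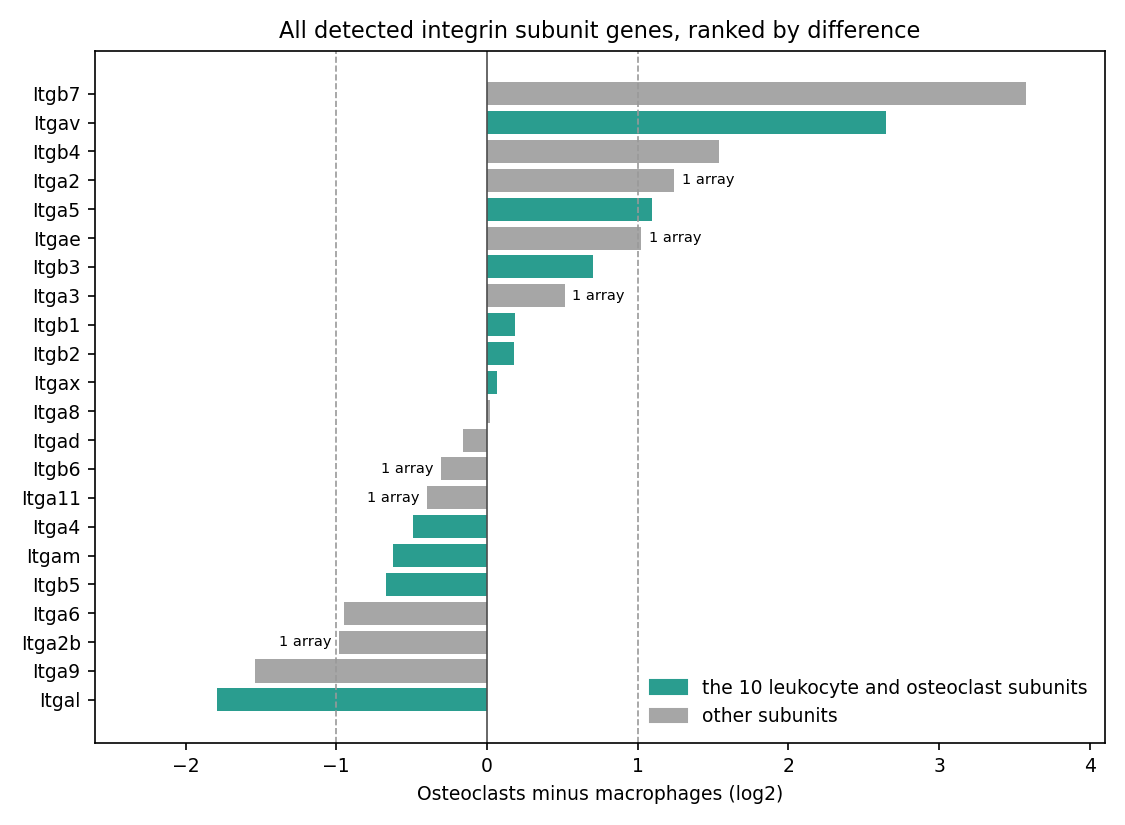
Bars are osteoclasts minus macrophages in log2 units for every detected integrin subunit gene at the probe that stands for it, green for the 10 genes described and grey for the others; dashed lines mark 2-fold and "1 array" marks genes above background on a single array. Itgb7 (3.58) and Itgav (2.65) stand at the top and Itgal (-1.79) at the bottom.

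Ligands, adaptors and signalling genes of integrins were followed through lists whose counts are to be read against the 11.4% higher and 8.14% lower of all detected genes. Of 17 detected ligands 3 were higher and 2 lower (median -0.22). Vcam1, the ligand of alpha 4 beta 1, read 845 and 212 and was 6.52-fold lower (-0.09 log2 units at its other detected probe), Thbs1 (thrombospondin 1) was at least 7.68-fold lower, and Edil3, an RGD protein, was at least 3.76-fold higher (its detected probes went down to -0.02). Of 23 detected genes listed as integrin activators or as adaptors of integrin tails, 3 were higher, or 2 at their bounds, and 2 lower (median -0.36). Kank1 was at least 8.07-fold and Rapgef1, an exchange factor for Rap1, 2.45-fold higher (its probes from -0.63 to 1.29), and Rassf5, which links Rap1 to LFA-1 in lymphocytes, was 2.47-fold lower.

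Of 34 adhesion signalling genes 7 were higher and 3 lower (median -0.17). The largest measured differences among the higher ones were those of Lims2, an adaptor of the integrin-linked kinase (at least 15.1-fold), Src, the kinase that acts downstream of alpha v beta 3 in osteoclasts (11.4-fold, its other detected probe at -0.18), and Dock5, an exchange factor for Rac (at least 2.82-fold). The bound of Dock5 lies below the 3.31-fold of Pik3cb, a catalytic subunit of phosphoinositide 3-kinase, which was detected on both arrays. Of 21 surface partners 7 were higher and 1 lower (median 0.01), among them Cav1 (58.8-fold), Sdc1 (11.1-fold) and the tetraspanin gene Cd9 (7.19-fold). Of 16 detected genes of integrin traffic 1 was higher, Rab25 (at least 4.09-fold), and 1 lower, Itch (2.31-fold), with a median of -0.24. The epidermal, muscle and fibroblast sums given above were also higher in osteoclasts, and the part of such cells in these lists was not tested.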

How the data were processed

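RNA of 1 macrophage and 1 osteoclast sample was labelled with biotin and hybridised to Illumina bead arrays, per the labels' protocols. The deposited non-normalized table holds 1 linear intensity per probe and array; 38.4% and 36.9% of the values were below 0, so a background had been subtracted by an unstated method. The authors' deposited processed table is on a log2 scale: over the 5844 probes whose intensities passed 200 in both samples, its differences followed the log2 ratio of the intensities (slope 0.97, r = 0.999 across probes, which are not independent replicates). Its column medians were 5.00 and 5.05 and its centring is unknown.

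The intensities were the starting point. The background of each array was estimated from the mode (-3.90 and -5.34) and the SD below it (3.54 and 5.40), because detection p-values and control probes were not used here, and passed to normexp in limma 3.58.1 (R 4.3.3). After adding 16, log2 values were quantile normalized. This step was tested on simulated arrays where only bright probes changed, as many up as down. That test does not cover dim probes or an uneven split of changes such as that of these arrays. Later steps used Python 3.11.15, pandas 2.3.3 and numpy 2.4.6. The precision is limited by the number of arrays, 1 per group. Of all probes, 34885 had 1 gene, 18 several and 10378 were unnamed here; Entrez identifiers of 34807 matched RefSeq (GRCm38.p6) and 0 symbols changed. For a probe above background on 1 array, the bright level was set against the higher of the dim level and the lowest detected level of the array with the dim value, and written as "at least N-fold". Such a bound holds for the main setting only, and other settings gave smaller differences for some probes.

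No test was run; genes were called by a size rule of 2-fold, if detected on at least 1 array. Named were all 10 members with every detected probe and, of each list, the 3 genes (2 for markers) with the largest difference past 2-fold; Itgad, Itgae, Il7r, Gfi1b, Vwf, Tfrc and Pik3cb were named after their values were seen. Members and lists were chosen with earlier results of these data known. Alternatives were other normalizations, no background correction, an offset of 50, the authors' values, other detection rules, the mean of a gene's probes and a 1.5-fold rule.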

Additional observations from a re-analysis of the deposited data

How the results depend on the processing

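No paired analysis was possible because each group had 1 array, and for the same reason no replicate could be left out and no chip entered as a block. Without normalization between arrays the median of all detected genes lay at 0.58 log2 units (-0.06 in the main setting, 0.29 under median scaling). Without normalization, 8 of the integrin probes (25.6% of all detected probes) and 5 of the genes (29.1% of all detected genes) were at least 2-fold higher. Lower were 0 and 0 (2.43% and 2.86% of all), and the median of the integrin genes was 0.76. In that setting 91.0% of all 2-fold gene calls were higher, under median scaling 81.2% and in the main setting 58.5%. Without background correction 2 probes were lower (10.1% of all detected probes). An offset of 50 left 2 probes (6.10% of all) and 1 gene (7.85%) higher. The count of probes detected on both arrays that were higher was 2 (8.62% of all such probes). With the mean of all probes of a gene, 1 gene was higher (8.59% of all detected genes). A 1.5-fold rule gave 5 higher and 4 lower probes (18.8% and 19.5% of all detected probes) and 3 higher and 3 lower genes (20.7% and 20.3% of all detected genes). Under cyclic loess and the authors' values, the counts were those of the main setting (4 higher and 1 lower probes, 2 higher and 1 lower genes). Of all detected probes 10.1% and 9.69% were higher and 6.17% and 6.34% lower in these 2 settings. Of all detected genes 12.1% and 11.6% were higher and 7.04% and 7.22% lower. Taking probes detected on 1 array at their bounds, an alternative chosen after seeing the data, gave 3 higher probes (8.58% of all detected probes). Of 96 single-probe values under 6 alternatives, 12 moved by over 1.5 times, and no difference past 2-fold changed its sign (0 cases). The dimness of Itgb3, Itga4 and Itgax limits what these arrays show of them.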
